A study of Homo sapiens with 8 samples.

Results

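Divergent head-to-head gene pairs are neighbouring genes that lie on opposite strands and are transcribed away from each other from start sites that sit close together. A pair was taken where the transcription start site (TSS) of a minus-strand gene lay 0 to 1000 bp upstream of that of a plus-strand gene, and where both genes exceeded 0.5 CPM (counts per 1000000 counts of the library) in their TSS region in at least 2 libraries. Of 1344 neighbouring gene pairs with this arrangement, 1164 met the level requirement on both sides, 67 on 1 side and 113 on neither. In 156 of the 1344 a side had no TSS count in any library. Of 299 listed TSS regions that overlapped another on the same strand, 221 had no count in any library. Whether such zeros come from the counting was not tested. The 1164 pairs held 2326 genes, 15.3% of the 15212 genes that passed the same filter among 23193 listed, since GMPR2 and ATF5 each belonged to more than 1 pair. No gene passed the filter through a single group, and in 1139 pairs both sides were above 0.5 CPM in all 8 libraries.

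Nascent transcription was measured by precision run-on sequencing (PRO-seq), which maps RNA polymerases engaged on the DNA, with strand, from run-on RNA. The cells were HCT116, a human colorectal carcinoma line, either wild-type (WT) or HIF1A-/-, a derivative in which homologous recombination disrupted HIF1A. Cells of each genotype were kept in normoxia or placed in hypoxia (1% O2) for 90 min. The study's methods describe DMSO vehicle or an inhibitor for PRO-seq cultures, without naming HIF1A-/- cells. The titles of these samples name no inhibitor. Each of the 4 groups had 2 libraries. Because HIF1A-/- is a single engineered line, genotype and any other difference between the lines cannot be told apart; the study describes the 2 libraries of a group as independent replicates.

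Promoters of eukaryotic genes often recruit polymerases in both directions, and in a head-to-head pair both directions lead into an annotated gene. The DNA between the start sites is then called a bidirectional promoter and is typically rich in CpG dinucleotides and poor in TATA boxes. Polymerases commonly pause shortly after the start, so reads in the TSS region, here 50 bp upstream to 500 bp downstream, mostly report engaged polymerases near the promoter, while reads in the gene body report elongation. HIF1A is the oxygen-regulated subunit of the transcription factor HIF1, which binds a short core, ACGTG or GCGTG, within hypoxia response elements.

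The DNA between the start sites is shown for 5 pairs on which the comparisons turn, as the plus strand of GRCh37 read 5′ to 3′. Capitals mark a HIF core (ACGTG or GCGTG on either strand) or a TATAAA, and for CCDC58/FAM162A, whose start sites are 944 bp apart, the 300 bases before the FAM162A start are given. The first 3 belong to pairs with a side that rose in hypoxia and the last 2 to pairs with a side that differed between the genotypes.
FAM162A upstream, chr3:122102723-122103022: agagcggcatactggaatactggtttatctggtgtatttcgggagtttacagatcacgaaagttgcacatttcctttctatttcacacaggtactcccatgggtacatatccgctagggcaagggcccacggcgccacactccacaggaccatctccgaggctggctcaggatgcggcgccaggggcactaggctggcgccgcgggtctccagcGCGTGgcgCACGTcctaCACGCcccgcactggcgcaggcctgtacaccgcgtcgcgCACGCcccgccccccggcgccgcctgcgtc
ATG9A/ANKZF1, chr2:220094411-220094609: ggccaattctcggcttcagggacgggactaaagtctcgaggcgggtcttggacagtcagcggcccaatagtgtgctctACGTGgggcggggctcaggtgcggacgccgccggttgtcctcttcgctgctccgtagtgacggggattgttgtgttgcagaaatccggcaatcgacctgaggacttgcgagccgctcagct
NGLY1/OXSM, chr3:25831531-25831562: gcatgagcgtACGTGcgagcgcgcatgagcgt
PRKG1-AS1/DKK1, chr10:54073889-54074040: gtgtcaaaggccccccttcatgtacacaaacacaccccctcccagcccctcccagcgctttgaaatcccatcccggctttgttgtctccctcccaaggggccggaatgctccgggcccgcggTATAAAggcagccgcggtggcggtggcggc
ID2-AS1/ID2, chr2:8821994-8822112: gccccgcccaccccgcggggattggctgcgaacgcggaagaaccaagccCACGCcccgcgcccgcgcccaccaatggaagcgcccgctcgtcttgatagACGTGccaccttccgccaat

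The FAM162A sequence held 4 HIF cores, the intervals of ATG9A/ANKZF1 and NGLY1/OXSM 1 each, that of ID2-AS1/ID2 2, and that of PRKG1-AS1/DKK1 none but 1 TATAAA. A HIF core is common: 68.3% of pair genes held one in the 300 bases before their start, against 58.5% of all tested genes, so a match describes the letters and not a bound site. The same windows of pair genes had a median GC content of 65.7%, against 61.3% in the other tested genes, and a median CpG observed over expected ratio of 0.859 against 0.727. TATAAA was found before 2.88% of pair genes and 8.34% of the others. The ETS core CCGGAAG was found before 21.5% and 10.1%, the Sp1 box GGGCGG before 74.3% and 59.4% and the CCAAT box before 39.8% and 35.0%. Each motif was searched on both strands, and GGGCGG and the HIF core can share letters with other GC-rich words. The sequence windows of both genes of a pair overlap when the start sites are close, so the 2326 windows are not independent.

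Most pairs joined genes with start sites much closer than the limit. The distance between start sites had a median of 142 bp, with quartiles of 71 and 308 bp, a largest value of 998 bp and 4 pairs whose start sites coincided. There were 439 pairs at up to 100 bp, 370 beyond that up to 250 bp, 214 from there up to 500 bp and 141 farther apart. Both genes coded for protein in 703 pairs (60.4%), a coding gene faced a noncoding RNA gene in 407 (35.0%) and a coding gene faced a pseudogene in 35. Of tested genes, 14.1% of the coding ones (1847 of 13062) and 25.0% of the noncoding ones (426 of 1704) belonged to a pair. In 439 pairs (37.7%) the TSS regions overlapped on opposite strands, where only the strand of a read assigns it to a side. In 213 of these the sides were more than 2-fold apart in WT normoxia replicate 1, so the opposite strands of these did not hold the same reads.

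Pair genes carried more engaged polymerase at their starts than other genes. TSS regions all have the same length, so their CPM values compare between genes. The median TSS level of pair genes was 67.5 to 71.1 CPM across the 8 libraries, against 30.0 to 34.5 CPM in the other tested genes. The gap was wide for noncoding RNA genes, whose medians were 57.8 to 71.4 CPM in pairs and 5.64 to 7.30 CPM elsewhere, and narrower for coding genes, at 70.1 to 73.0 and 34.9 to 40.1 CPM. Gene body density differed less, with medians of 1.76 to 1.85 RPKM in pairs (reads per kilobase of gene body, scaled to the library total) and 1.44 to 1.56 RPKM elsewhere, and 0.874 to 1.18 against 0.601 to 0.899 RPKM for noncoding genes. These are descriptions, since the rule asked for a minimum level but the same minimum applied to the genes they are set against.

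The levels of the sides of a pair were related, but loosely. Across the 1164 pairs the Spearman correlation between the minus-side and plus-side TSS levels was 0.250 to 0.276 in the 8 libraries, and Pearson's r of the log2 levels was 0.348 to 0.387. The pairs of a library share its depth, and both sides share GC-rich sequence. The median pair had sides 2.06-fold to 2.17-fold apart, 51.5% to 55.0% of pairs were more than 2-fold apart and 6.96% to 7.99% more than 10-fold apart. In gene bodies, on the RPKM scale, the correlation was 0.314 to 0.375.

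**Figure D1:**
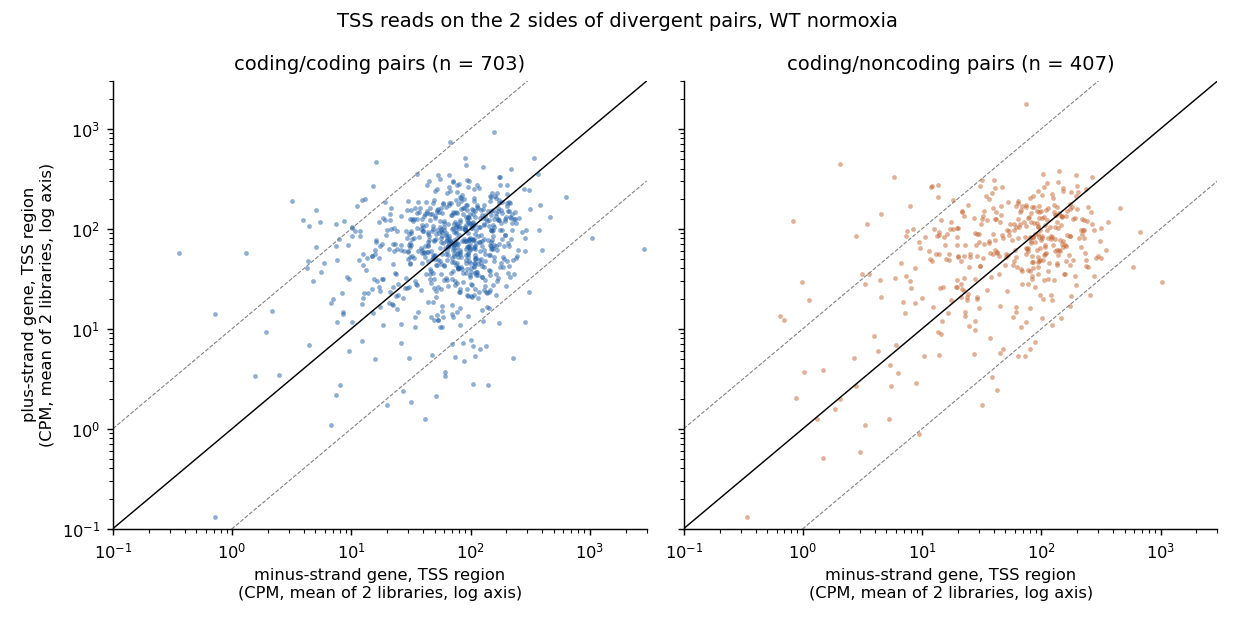
TSS level of the plus-strand gene (vertical axis, CPM, log scale) against that of the minus-strand gene (horizontal axis, CPM, log scale) in WT normoxia, mean of 2 libraries, for the 703 pairs of coding genes and the 407 pairs of a coding with a noncoding gene, 1 point per pair. The solid line marks equal levels and the dashed lines 10-fold differences; most points lie between the dashed lines and spread widely around the solid one.

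Which side was higher was a stable property of most pairs. The same side was higher in all 8 libraries in 917 pairs (78.8%), the plus side in 475 and the minus side in 442. The log2 ratio of the sides had an SD of 1.79 across pairs and a median SD of 0.27 between replicates of a group, and replicates correlated at 0.951 to 0.971 in this ratio. The 247 pairs whose order changed between libraries were nearly balanced, with a median absolute log2 ratio of 0.21. Sides were within 2-fold of each other in all 8 libraries in 322 pairs (27.7%), and more than 10-fold apart in all 8 in 41 (3.52%).

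Among the balanced pairs were some long described as bidirectional. TK1, which encodes thymidine kinase, and AFMID, which encodes a formamidase of tryptophan breakdown, start 112 bp apart and had the highest lower side of any pair: TK1 ranged from 331 to 500 CPM and AFMID from 281 to 528 CPM over the 8 libraries. RPL7, a ribosomal protein gene, and RDH10, of retinol oxidation, came next at 333 to 428 and 312 to 543 CPM, then OIP5 and NUSAP1, both of mitosis, at 244 to 308 and 221 to 323 CPM. PPAT and PAICS, which encode enzymes of purine synthesis, start 466 bp apart and held 110 to 143 and 106 to 137 CPM. GART, of the same pathway, and SON, a splicing cofactor, were 145 bp apart, at 156 to 233 and 148 to 214 CPM. In each of these 5 pairs the ranges of the sides overlapped.

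Other known pairs were tilted in every library. TMEM258, a subunit of the oligosaccharyltransferase, lay 23 bp from FEN1, the flap endonuclease of DNA replication, and was the higher side in all 8 libraries, at 198 to 295 against 49.6 to 77.3 CPM. SIRT3, a mitochondrial deacetylase, was above PSMD13, a proteasome subunit, at 167 to 215 against 104 to 133 CPM. The long noncoding RNA gene NBR2 was above BRCA1, whose product acts in DNA repair, at 39.1 to 60.0 against 17.9 to 37.2 CPM. The widest gap in the WT normoxia mean was that of BAIAP2-AS1/BAIAP2, where over the 8 libraries the coding gene held 267 to 481 CPM and its antisense partner 1.84 to 4.43 CPM. Of 17 pairs listed as described examples, 12 met the rule.

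At the start, the coding gene and its noncoding partner were the stronger side about equally often. Among the 407 pairs of a coding and a noncoding gene, the coding side had the higher TSS level in 182 to 223 (44.7% to 54.8%), depending on the library. It was higher in all 8 libraries in 159 pairs (39.1%), and the noncoding side in 151 (37.1%). In the gene body the coding side had the higher density in 59.9% to 66.0% of the 382 pairs measured on both sides. The correlation between sides at the TSS was 0.322 to 0.349 in these pairs and 0.191 to 0.221 in pairs of coding genes. In the gene body the order was the other way, at 0.233 to 0.286 and 0.359 to 0.411.

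Neighbouring genes that were farther apart or in another orientation gave the background for these values. Divergent neighbours with start sites more than 1000 and up to 10000 bp apart (557 pairs) had a TSS correlation of 0.026 to 0.086 and a median fold between sides of 3.40 to 4.01, with no library overlapping the range of the close pairs. Convergent neighbours (561) gave 0.126 to 0.169 and 3.49 to 3.79-fold. Tandem neighbours (478), which lie on the same strand, gave 0.242 to 0.364, a range that includes that of the close pairs, but a wider median gap of 2.94 to 3.51-fold. In the gene body the correlation of distant divergent neighbours was 0.187 to 0.239, that of tandem neighbours 0.211 to 0.243 and that of convergent neighbours 0.255 to 0.322, which overlapped the close pairs. Within the close pairs the correlation was not higher at shorter distance, at 0.195 to 0.236 up to 100 bp and 0.325 to 0.443 beyond 500 bp. These differences between sets are descriptions with no test.

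**Figure D2:**
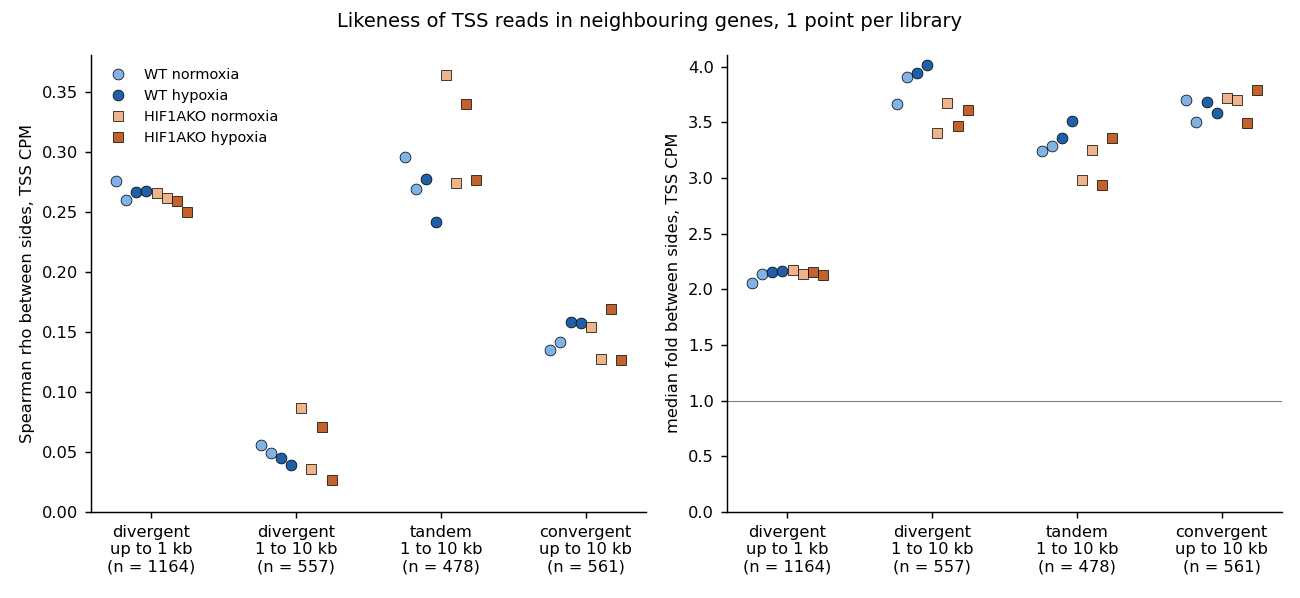
Spearman correlation between the TSS levels of neighbouring genes (left) and the median fold between them (right), for close divergent pairs and for divergent, tandem and convergent neighbours up to 10000 bp apart, with 1 point per library coloured by group. Close pairs had the smallest median fold in all 8 libraries, at 2.06 to 2.17, while their correlation lay within the range of the tandem neighbours.

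Hypoxia in WT cells raised 6 pair genes in the gene body and lowered none at an adjusted p of 10% (edgeR quasi-likelihood test). The 6 are 0.263% of the 2280 pair genes tested, where 0.431% of all 16686 genes tested were called higher and 0% lower. They were FAM162A, ANKZF1, OXSM, BCKDHA, LMNTD2 and MOB3A. At an unadjusted p under 0.05, 59 pair genes were higher and 25 lower, of 585 and 184 among all genes. With the replicate number as a block, 66 pair genes were higher, against 3.73% of all genes, and 44 lower, against 1.77%. In each of the 5 pairs whose partner could be tested, the partner's fold change was positive too, though none of the 5 partners passed. The calls rested on few libraries and did not all hold when single WT libraries were left out. Such a fit leaves 1 library in a group and can lose calls in any gene, not in pair genes alone. Over 13 alternatives FAM162A was called under 11, MOB3A under 10, ANKZF1 and BCKDHA under 9, OXSM under 8 and LMNTD2 under 7.

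FAM162A, a known hypoxia-inducible gene of the mitochondrion, gave the largest response. Its gene body level was 28.4 and 28.7 CPM in WT normoxia and 133 and 202 CPM in WT hypoxia, with 24.7 and 26.0 CPM in HIF1A-/- normoxia and 24.2 and 23.0 CPM in HIF1A-/- hypoxia. The WT hypoxia libraries stood apart from the other 6. The log2 fold change was 2.52 ± 0.20 (SE; edgeR adjusted p = 0.0054) in WT and -0.14 ± 0.19 in HIF1A-/-. The difference between the genotypes, 2.66 ± 0.28, passed with an adjusted p of 0.062, the only pair gene called, where 0.0539% of all genes were called (block: 6 pair genes, against 0.384%). It did not pass without WT normoxia replicate 1 (2.67) or 2 (2.65), WT hypoxia replicate 2 (2.36) or HIF1A-/- hypoxia replicate 1 (2.75) or 2 (2.60).

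CCDC58, the minus side, held 57.0 and 48.7 CPM in WT normoxia and 82.8 and 88.3 CPM in WT hypoxia, and 36.2 to 56.3 CPM in the 4 HIF1A-/- libraries. Its own change was 0.66 ± 0.24 (adjusted p = 0.90, and 0.065 with the replicate block). The sides could be compared directly in a fit of both sides of every neighbouring pair. FAM162A rose by 1.83 ± 0.27 on the log2 scale more than CCDC58 (adjusted p = 0.087), the only close pair called among 1119, where 0.347% of all 13828 neighbouring pairs were called. With the block 31 close pairs were called, against 5.03%, and without the block 0 when any 1 of the 4 WT or the 2 HIF1A-/- hypoxia libraries was left out. At the TSS neither side passed: FAM162A held 117 and 128 CPM in WT normoxia and 179 and 184 CPM in WT hypoxia, a change of 0.60 on the log2 scale with an adjusted p of 0.92 (0.029 with the block).

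ANKZF1, a ribosome quality control factor, had 12.6 and 14.5 CPM in the WT normoxia gene bodies and 33.2 and 32.7 CPM in WT hypoxia. The 4 HIF1A-/- libraries held 12.2 to 14.7 CPM. The change in WT was 1.25 ± 0.16 (adjusted p = 0.031). Its partner ATG9A, which encodes a lipid scramblase of autophagosome formation, held 25.2 and 24.5 CPM in WT normoxia and 34.2 and 31.4 CPM in WT hypoxia, a change of 0.37 ± 0.15 that did not pass. The difference of the sides, 0.887, had an adjusted p of 0.37 and passed only with the block, at 0.045.

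OXSM, a ketoacyl synthase of mitochondrial fatty acid synthesis, rose from 12.7 and 15.3 CPM to 27.8 and 40.8 CPM in WT gene bodies (log2 change 1.26 ± 0.21, adjusted p = 0.089). NGLY1, its partner across 32 bp and the cytosolic N-glycanase, held 146 and 147 CPM in WT normoxia and 191 and 285 CPM in WT hypoxia. That change of 0.67 ± 0.18 passed with the block alone (adjusted p = 0.55, and 0.054 with the block). The OXSM change less that of NGLY1 was 0.60 ± 0.18 (adjusted p = 0.57, and 0.088 with the block). In HIF1A-/- cells OXSM held 12.4 to 14.6 CPM and NGLY1 117 to 143 CPM, and the oxygen groups overlapped for NGLY1, while OXSM was slightly lower in hypoxia (-0.21 ± 0.21, not called).

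BCKDHA, a subunit of the branched-chain ketoacid dehydrogenase, rose from 34.4 and 28.9 CPM to 71.9 and 67.6 CPM in WT gene bodies (1.11 ± 0.15, adjusted p = 0.039). Its partner EXOSC5, an RNA exosome subunit, held 25.2 and 25.5 CPM and then 37.5 and 30.6 CPM (0.40 ± 0.26, not called). MOB3A, of the MOB family of kinase adaptors, rose from 78.6 and 75.4 CPM to 145 and 175 CPM (1.02 ± 0.13, adjusted p = 0.031). Its partner IZUMO4 had 12.4 to 14.7 CPM at the TSS in WT libraries but at most 0.79 CPM in the gene body, which was not tested.

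LMNTD2 and RASSF7 moved by a like amount. LMNTD2 rose from 9.90 and 10.5 CPM to 21.3 and 27.1 CPM in WT gene bodies (1.21 ± 0.19, adjusted p = 0.071). RASSF7, a Ras association domain gene, held 8.74 and 8.17 CPM in WT normoxia and 17.8 and 21.0 CPM in WT hypoxia, a change of 1.17 ± 0.23 with an adjusted p of 0.17 (0.019 with the block). MIR210HG, which lies on the LMNTD2 strand beyond RASSF7 and reads toward LMNTD2, went from 5.60 and 5.46 CPM to 78.3 and 108 CPM in the same libraries. The part of its transcription in the LMNTD2 counts was not tested.

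**Figure D3:**
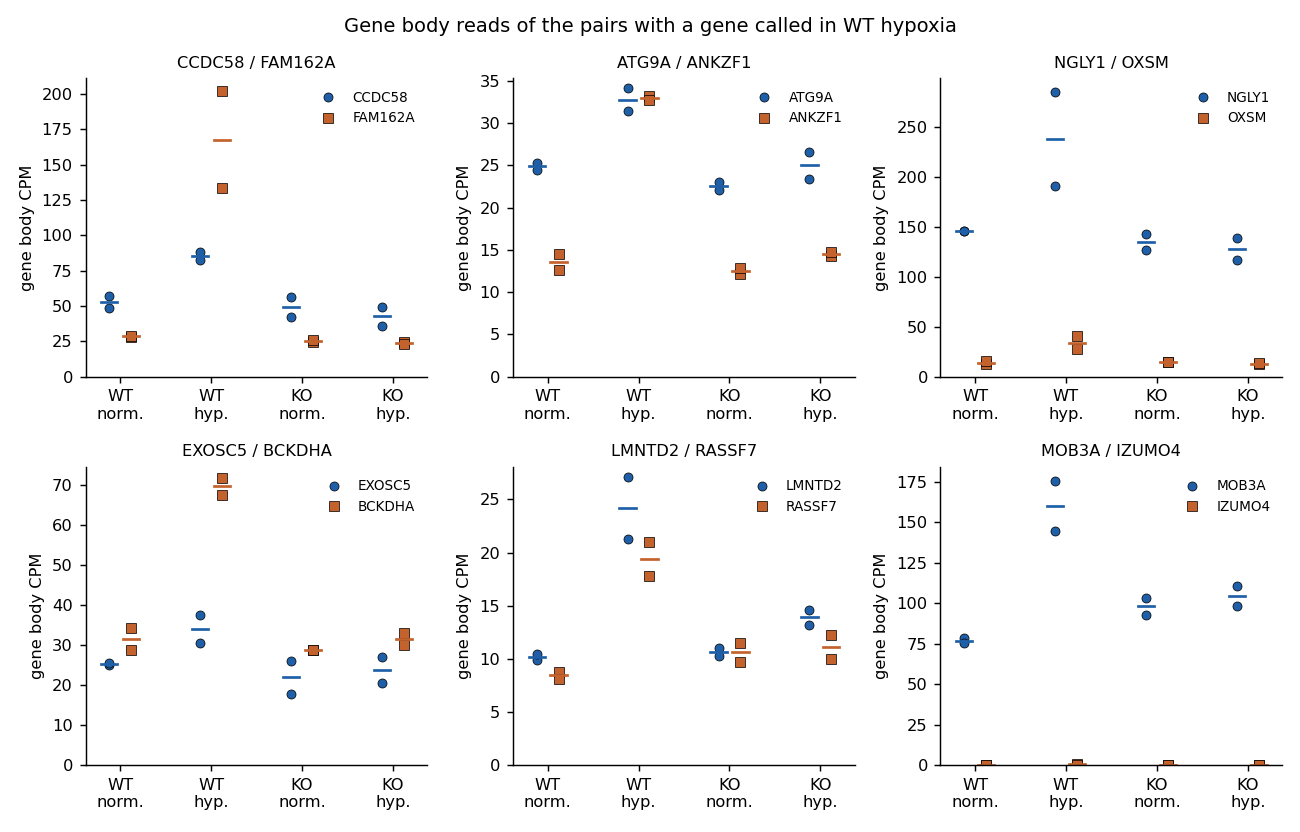
Gene body level (CPM, linear axis from 0) of both genes of the 6 pairs with a gene called in WT hypoxia, 1 point per library with a bar at the group mean; KO stands for HIF1A-/-. The called gene separates the WT hypoxia libraries from the others, as for FAM162A at 133 and 202 CPM against 23.0 to 28.7 CPM, while CCDC58 shifts less.

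With the replicate block, both sides of 12 pairs passed in WT hypoxia, with the same sign in each, and 85 pairs had 1 side that passed. The 12 are 1.07% of 1119 pairs, where 0.980% of distant divergent neighbours, 0.976% of tandem and 1.92% of convergent neighbours had both sides called with 1 sign. Pairs that rose included BTG1, an antiproliferative gene, with LOC101928617 (1.13 and 1.31 on the log2 scale), C2orf81 with WDR54 (1.16 and 1.18) and FKBP15 with SLC31A1, the copper transporter (0.60 and 0.66). Other pairs fell. CCT3, a subunit of the TRiC chaperonin, fell by 0.52 with TSACC (-0.78), TCP1 of the same complex fell by 0.55 with MRPL18 of the mitochondrial ribosome (-0.39), and ST13, an HSP70 cofactor, fell by 0.54 with XPNPEP3 (-0.43). None of these sides passed without the block.

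Over all pairs, the hypoxia responses of the sides were related to about the same degree as those of other neighbours. In WT gene bodies the log2 fold changes of the sides correlated with Pearson's r of 0.355 and Spearman's rho of 0.295 over 1119 pairs, and 60.9% of pairs had sides of the same sign. Distant divergent neighbours gave r of 0.348 (rho 0.199), tandem neighbours 0.413 (0.261) and convergent neighbours 0.342 (0.251). Within the close pairs r was 0.444 for coding with coding genes and 0.252 for coding with noncoding genes. Both sides are measured in the same libraries, so their errors are shared. Taking the response of each side from a different replicate pair gave 0.282 and 0.241, against 0.255 and 0.404 from the same one. The values from different replicate pairs were 0.311 and 0.259 for distant divergent and 0.348 and 0.311 for tandem neighbours. At the TSS the WT correlation was 0.222, with 0.112 for distant divergent, 0.202 for tandem and 0.264 for convergent neighbours. It fell to 0.0699 without WT normoxia replicate 1 and to 0.116 without WT hypoxia replicate 2.

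**Figure D4:**
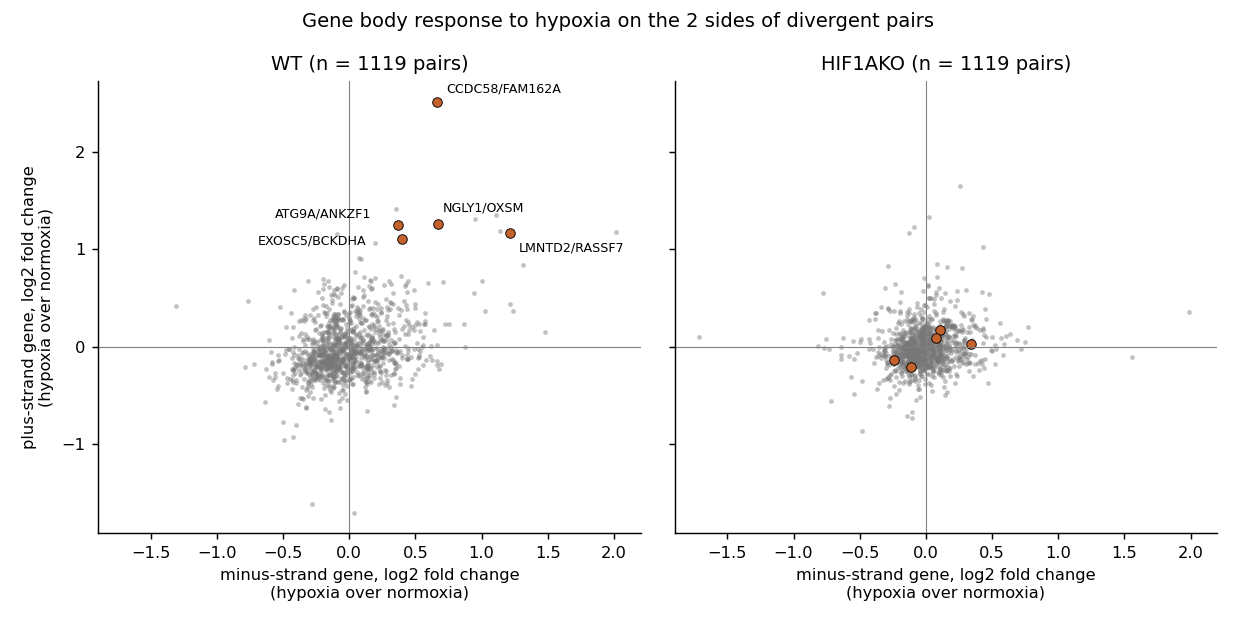
Gene body log2 fold change (hypoxia over normoxia) of the plus-strand gene against that of the minus-strand gene, in WT and in HIF1A-/- cells (HIF1AKO in the plot), 1 point per pair, with 5 pairs that hold a called gene marked in colour. Pearson's r is 0.355 in WT and 0.147 in HIF1A-/- cells, and CCDC58/FAM162A lies far from the others in WT.

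In HIF1A-/- cells hypoxia moved no pair gene past the threshold. None of the 2280 tested gene bodies was called by edgeR, where 0% of all genes were called, with 9 higher and 21 lower at an unadjusted p under 0.05, of 175 and 172 among all genes. The replicate block and DESeq2 also called 0 pair genes, where the block called 0.03% of all genes higher and 0.00599% lower. Among all 16686 genes DESeq2 called 2 higher and 6 lower. The responses of the sides correlated at 0.147 in gene bodies and -0.094 at the TSS. At the TSS no pair gene was called in either genotype, where 0.046% of all genes were called higher in WT and 0% in HIF1A-/-. Unadjusted, 86 of the 2326 pair genes were higher and 20 lower in WT, of 371 and 240 among all 15212 genes, and 6 and 11 in HIF1A-/-, of 77 and 58. The block called 31 pair genes higher and 2 lower at the TSS in WT, against 0.789% and 0.217% of all genes. DESeq2 called 1 higher, of 15 among all genes. No TSS call was made for the difference between genotypes either, where 0.0066% of all genes were called, with 33 higher and 3 lower unadjusted, of 125 and 55 among all genes, and 1 called with the block, against 0.046%.

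The genotypes also differed in normoxia. In HIF1A-/- against WT cells 6 pair genes were higher in the gene body and 8 lower, where 0.725% and 1.05% of all genes were called. With the block the counts were 44 and 74, against 3.93% and 6.39%. Without the block, fewer pair genes were called in the gene body when any single normoxia library was left out. Such a fit leaves 1 library in a group and can lose calls in any gene. At the TSS 2 were higher and none lower, where 0.224% and 0.434% of all genes were called, with 75 higher and 51 lower unadjusted, of 648 and 567 among all genes. With the block 35 were higher and 18 lower at the TSS, against 2.24% and 2.04%. More were called at the TSS without HIF1A-/- normoxia replicate 2 and fewer without either WT normoxia library. No close pair had sides that differed at the TSS, where 0.487% of all neighbouring pairs were called, with 40 of 1164 close pairs and 1316 of all 15190 at an unadjusted p under 0.05 and 5 called with the block, against 2.87%.

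Without the block, PRKG1-AS1/DKK1 was the only pair with both sides called, in the gene body and at the TSS. DKK1, a secreted inhibitor of Wnt signalling, held 44.0 and 54.2 CPM in WT normoxia gene bodies and 308 and 265 CPM in HIF1A-/- normoxia. The hypoxia libraries kept that order, at 37.8 and 40.9 CPM in WT and 262 and 239 CPM in HIF1A-/-. The log2 difference was 2.55 ± 0.17 (adjusted p = 0.00073), and at the TSS 1.13 ± 0.15 (adjusted p = 0.0040). PRKG1-AS1, its antisense neighbour, held 6.23 and 8.88 CPM in WT normoxia and 21.6 and 20.6 CPM in HIF1A-/- normoxia gene bodies. Its differences were 1.49 ± 0.29 (adjusted p = 0.060) and, at the TSS, 1.29 ± 0.21 (adjusted p = 0.017). In gene bodies the DKK1 difference less that of PRKG1-AS1 was 1.05 ± 0.24 (adjusted p = 0.14, and 0.016 with the block). At the TSS it was -0.16 ± 0.26 and was not called in either fit. DKK1 was called under all 13 alternatives in both regions, and PRKG1-AS1 under 9 in the gene body and 11 at the TSS.

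GAS6, a ligand of TAM receptor kinases, and GAS6-AS2 were also both higher in HIF1A-/- cells. GAS6 held 95.8 and 71.9 CPM in WT normoxia gene bodies and 528 and 211 CPM in HIF1A-/- normoxia, a difference of 2.16 ± 0.58 that passed with the block alone (adjusted p = 0.20, and 0.0040 with the block). GAS6-AS2 held 1.16 and 1.32 CPM against 9.86 and 5.49 CPM, 2.64 ± 0.52 (adjusted p = 0.069). SOX9, a transcription factor of the intestinal crypt, went the other way, at 19.2 and 31.5 CPM in WT and 6.73 and 6.53 CPM in HIF1A-/- normoxia (-1.93 ± 0.32, adjusted p = 0.034). SOX9-AS1 held 12.6 and 21.1 CPM against 4.41 and 7.99 CPM, -1.45 ± 0.40 (adjusted p = 0.22, and 0.0013 with the block). The groups did not overlap in any of these 4 genes, which the rule for naming called genes required of SOX9 and GAS6-AS2.

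In 2 pairs the sides themselves differed in their change. ID2, an inhibitor of basic helix-loop-helix factors, held 14.6 and 30.0 CPM in WT and 62.7 and 81.7 CPM in HIF1A-/- normoxia gene bodies (1.70 ± 0.36, adjusted p = 0.089). ID2-AS1 overlapped between the groups, at 32.9 and 63.4 against 33.5 and 79.3 CPM. The sides differed in their change by 1.597 ± 0.302 (adjusted p = 0.082), 1 of 2 close pairs called in that fit, where 1.24% of all neighbouring pairs were called (block: 23, against 8.55%). Without WT normoxia replicate 1 or 2 or HIF1A-/- normoxia replicate 1 neither was called, and without any other single library 1 was. The other was AQP7P1/LOC102724580. LOC102724580 held 7.58 and 12.5 CPM in WT and 0.227 and 0.473 CPM in HIF1A-/- normoxia (-4.83 ± 0.56, adjusted p = 0.0075), and AQP7P1, a pseudogene of the AQP7 family whose reads can match related copies, 3.67 and 4.86 against 1.23 and 1.42 CPM. Neither start of that pair exceeded 1.57 CPM in any library.

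In the other pairs with a called gene 1 side alone passed, which does not show that the sides differed. Over all called genes, DKK1 and PRKG1-AS1 included, 6 of 6 tested partners of genes called higher shared their sign. So did 6 of 7 partners of genes called lower. The partners' median changes were 1.10 and -0.89. For LOC100507144/CD44 the difference of the sides (plus-strand gene less minus-strand gene) was -0.05 ± 0.30 (not called). For FGD6/VEZT it was 0.92 ± 0.19 (adjusted p = 0.11, and 0.0093 with the block). LINC01770/VWA1 had 0.99 ± 0.21 (adjusted p = 0.11, and 0.010 with the block). DLX2/DLX2-AS1 had -1.10 ± 0.33 (adjusted p = 0.28, and 0.098 with the block). The side differences of DDHD1, SH3TC2 and EXTL3 with their partners did not pass in either fit. DDHD1, a phospholipase, was higher in HIF1A-/- normoxia, at 297 and 246 against 138 and 139 CPM in gene bodies (0.97 ± 0.16, adjusted p = 0.036), and DLX2, a homeobox factor, at 5.64 and 11.9 against 2.32 and 2.54 CPM (1.83 ± 0.36, adjusted p = 0.064). CD44, the hyaluronan receptor, was lower, at 237 and 231 against 435 and 534 CPM (-1.05 ± 0.17, adjusted p = 0.031). FGD6, a CDC42 exchange factor, was lower at 40.0 and 53.3 against 95.4 and 100.4 CPM (-1.08 ± 0.18, adjusted p = 0.033), while its partner VEZT, of adherens junctions, held 121 and 122 against 133 and 139 CPM (-0.16 ± 0.14). LINC01770 fell by 1.52 on the log2 scale, ZNF84 by 1.04, SH3TC2 by 1.43 and EXTL3 by 0.61. EXTL3 was called under 3 of 13 alternatives, the fewest of the genes called.

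**Figure D5:**
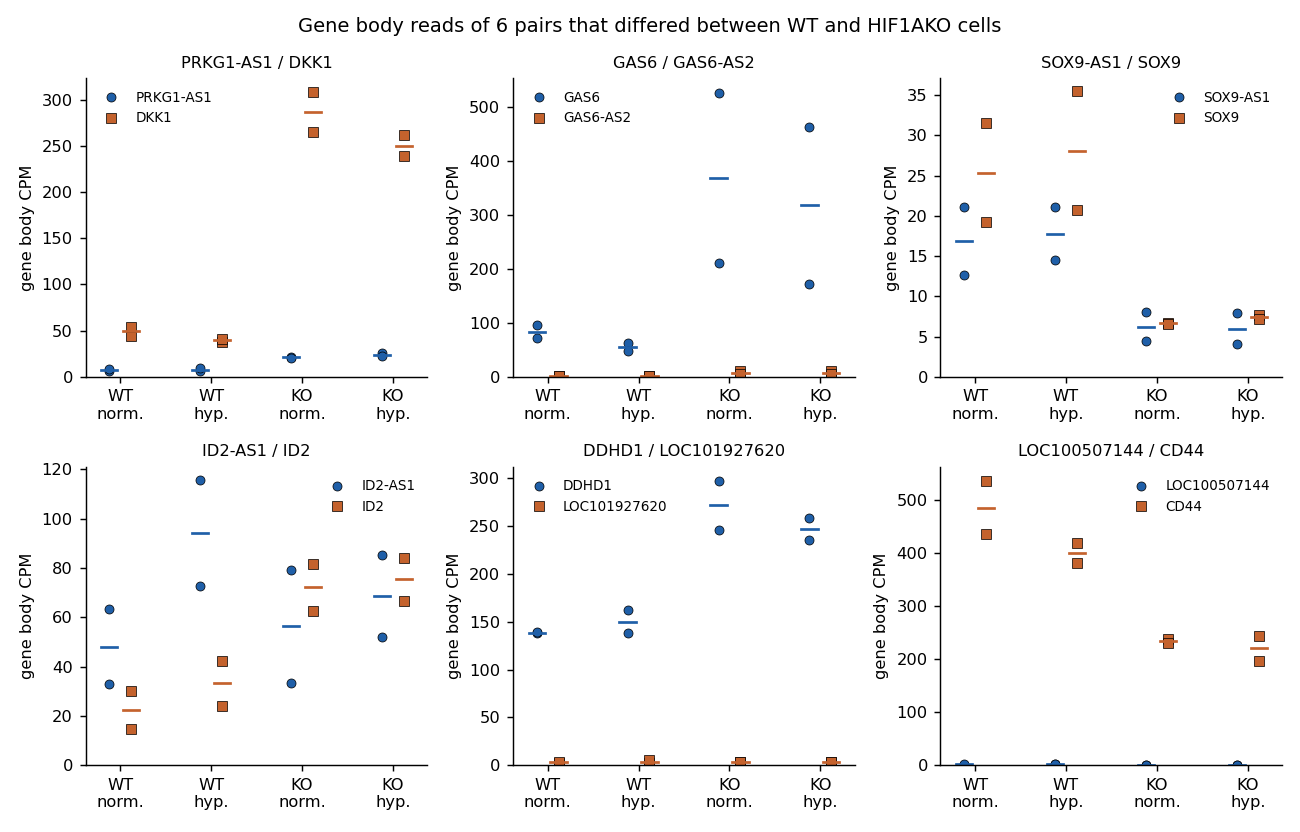
Gene body level (CPM, linear axis from 0) of both genes of 6 pairs that hold a gene called between HIF1A-/- (KO) and WT cells in normoxia, 1 point per library with a bar at the group mean. DKK1 and PRKG1-AS1 are both higher in HIF1A-/- cells, while ID2-AS1 overlaps between the groups beside a separated ID2.

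With the block, both sides of 12 pairs passed in the gene body, with the same sign in each, and 87 pairs had 1 side that passed. The 12 are 1.07% of 1119 pairs, where 1.18% of distant divergent, 1.71% of tandem and 2.50% of convergent neighbours had both sides called with 1 sign. They included CHPF, of chondroitin synthesis, with TMEM198 (0.51 and 1.40 on the log2 scale), C2CD3, a centriole gene, with PPME1 (0.67 and 0.79) and CHDH, choline dehydrogenase, with IL17RB (-0.63 and -0.71). At the TSS both sides passed in 4 pairs (0.344%), against 0.539% of distant divergent, 0.418% of tandem and 0.713% of convergent neighbours. The 4, besides DKK1, GAS6 and SOX9 with their partners, held CELSR3, a cadherin of planar polarity, with CELSR3-AS1 (1.03 and 0.97). The normoxia differences of the sides correlated with r of 0.476 in gene bodies, against 0.203 in distant divergent, 0.332 in tandem and 0.516 in convergent neighbours. At the TSS r was 0.433, and 0.658 in pairs of a coding with a noncoding gene, but rho was 0.170 and 0.291. Distant divergent, tandem and convergent neighbours had r of 0.061, 0.158 and 0.179 at the TSS, and rho of 0.107, 0.101 and 0.140. The WT normoxia libraries enter both this difference and the WT hypoxia response.

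Gene lists differed in how many of their members lay in a pair. Of 57 HIF target genes tested at the TSS, 3 were in a pair: FAM162A, GYS1 and JMJD6. FAM162A was called in WT hypoxia gene bodies, and with the block GYS1, glycogen synthase, was called too. GYS1 gene bodies went from 85.3 and 73.1 CPM to 134 and 163 CPM (0.87 ± 0.16, adjusted p = 0.11, and 0.014 with the block), while its partner RUVBL2, a helicase of chromatin remodelling complexes, held 136 and 115 and then 132 and 124 CPM. The RUVBL2 change less that of GYS1 was -0.87 ± 0.24 (adjusted p = 0.46, and 0.026 with the block). The median WT gene body response of the 3 targets was 0.87 on the log2 scale, against -0.02 over all genes. It was 1.52 for the 57 listed targets outside pairs with a tested gene body, of which 54 were tested at the TSS. A median of 3 genes is a weak basis for that contrast.

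Of 159 genes of the mitochondrial ribosome and oxidative phosphorylation tested at the TSS, 51 were in a pair. In WT hypoxia 6 of the 51 had a positive gene body change and the median was -0.20. None passed, where 0.431% of all genes were called higher and 0% lower. With the block 2 were lower, where 1.77% of all genes and 1.93% of pair genes were. The median change was -0.07 over all tested pair genes and -0.02 over all genes. The 109 listed genes outside pairs with a tested gene body had a median of -0.15. Of 106 DNA repair and replication genes, 31 were in a pair, with a median of -0.05, 13 positive changes and none called. Of 73 tRNA and RNA processing enzymes, 19 were in a pair, with a median of -0.18, 4 positive changes and none called. The partners of these 3 groups had medians of -0.13, -0.12 and -0.11.

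TSS totals ran from 2783581 to 5966348 counts per library and gene body totals from 18125234 to 23622392, of which pair genes held 20.6% to 22.0% and 13.2% to 13.8%. The epithelial markers EPCAM, CDH1, KRT8, KRT18 and KRT19 were present in every library at 48.2 CPM or more in the gene body, and VIL1 was at most 0.635 CPM. Of the markers of other cell types, PTPRC, CD3E, PECAM1 and COL1A2 were at most 0.444 CPM in the gene body. COL1A1, a collagen gene of fibroblasts, held 19.0 to 50.3 CPM in the gene body, as high as some epithelial markers, and at most 0.996 CPM at the TSS. The part of other cells in the results was not tested. HIF1A itself held 129 to 172 CPM in the gene body of all 8 libraries. The disruption lies in exons after the start and does not remove the promoter, so this level does not check the genotype.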

How the data were processed

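PRO-seq counts were taken from the deposited tables of the TSS region and the gene body of 23193 genes. Per the methods of the study, the authors trimmed the reads, aligned them to GRCh37 with HISAT2 (2.1.0 in the submitters' processing notes) without spliced alignment, kept a mapping quality above 10, merged 2 runs per library and made the deposited counts with featureCounts. With a single start per gene, other active starts are not seen. Samples were grouped by genotype and oxygen from the labels.

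Genes above 0.5 CPM in at least 2 libraries were fitted with edgeR 4.0.16 (quasi-likelihood, TMM) in R 4.3.3 as 4 group means over 8 libraries, with Benjamini-Hochberg adjustment over all genes of a table and a threshold of 10%. CPM values are counts over the library total of the table. The sides of all neighbouring pairs (15190 at the TSS, 13828 in gene bodies) were compared in a fit of 16 columns with a term per library. The fits were tested on simulated data. No count interval was needed. Total counts per library did not set the precision alone, since replicates differed by more than counting noise. Their chi-square per degree of freedom was 21.5 to 37.0 in gene bodies and 5.04 to 9.37 at the TSS. Gene types and motifs came from RefSeq and GENCODE annotation and the GRCh37 sequence, and gene types were found for 2325 of 2326 pair genes.

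Replicate numbers, taken from the labels, paired the samples: deviations from group means correlated between equal numbers in all 6 group pairs, at 0.217 to 0.522 at the TSS and 0.493 to 0.844 in gene bodies. The fit with the number as a block is therefore given beside the counts of calls and beside some of the named genes and pairs. No replicates were duplicates (chi-square per degree of freedom 5.04 or more). Alternatives were the block, no TMM scaling, a 1 CPM filter, no filter, DESeq2 1.42.0, a 500 bp limit and leaving out each replicate.

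Named pairs were listed pairs described as bidirectional, the called genes with the smallest p whose groups did not overlap (up to 8 a direction) with their partners, up to 5 called side differences, the extremes of level and ratio, and listed HIF targets. Pairs in which both sides passed with the block were added after their values were seen. The members and lists were chosen with earlier results of these data known.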

Additional observations from a re-analysis of the deposited data

Results flagged for a closer look

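The gene body response of FAM162A to hypoxia differed between the genotypes by 2.66 on the log2 scale in the edgeR test of the interaction (SE 0.28, adjusted p = 0.062), with 2.52 in WT and -0.14 in HIF1A-/- cells. Both WT hypoxia libraries were above both WT normoxia libraries, and both HIF1A-/- hypoxia libraries were below both HIF1A-/- normoxia libraries. The call held in 8 of 13 alternatives.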

How the results depend on the processing

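Over the alternatives, 304 values of the counts and correlations stayed within 1.5 times or the replicate spread and 75 moved by more, and calls of named genes held 216 times and no longer passed 83 times, with no reversal. The replicate block raised the counts of pair genes called: in gene bodies to 66 higher and 44 lower for WT hypoxia, 6 for its difference between genotypes, and 44 higher and 74 lower for the genotypes in normoxia, and at the TSS to 31 and 2, 1, and 35 and 18. Pairs whose sides differed rose with the block to 31, 1 and 23 in gene bodies and 5 at the TSS for normoxia. DESeq2 called 20 pair genes higher in WT hypoxia gene bodies (174 among all genes), 6 for the difference (68), 15 higher and 13 lower in normoxia (299 and 331), and at the TSS 1 higher in WT hypoxia (15) and 5 higher in normoxia (60). With no filter the counts were 10 higher in WT hypoxia gene bodies, 8 at the TSS, 1 for the TSS difference, 20 and 7 for normoxia at the TSS, and 0 and 1 pairs with unlike sides. With start sites up to 500 bp apart, a smaller set by construction, they were 3 in WT hypoxia gene bodies, 0 for the difference and 5 lower in normoxia. The share of all genes called is not given beside the no-filter and 500 bp counts, so these do not compare pair genes with other genes.

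Among the correlations between sides, the TSS level correlation (0.264) was 0.252 with a 1 CPM filter, 0.228 with 0.5 CPM in all 8 libraries and 0.237 up to 500 bp, and the TSS response correlation was 0.245 and 0.214 under the last 2. Leaving out each replicate gave 0 to 9 pair genes higher in WT hypoxia gene bodies and 0 to 1 at the TSS, 0 to 1 for the difference, 1 to 7 higher and 1 to 7 lower in normoxia, 1 to 36 and 0 to 8 at the TSS, 0 to 1 pairs with unlike sides in gene bodies in either contrast and 0 to 6 at the TSS. The TSS response correlation ranged from 0.0699 to 0.222 and that of gene bodies from 0.281 to 0.370, the TSS level correlation from 0.262 to 0.265, and the pairs from 1162 to 1164. A lone library was assumed to vary like the other groups. The share of all genes called in these reduced fits is not given, so their counts do not set pair genes apart from other genes. The cause of the changes was not tested.

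With 2 libraries per group and this spread between replicates, changes smaller than those called can have been missed. TMM scaling leaves the side comparison unchanged by construction.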
